A study of Mus musculus with 6 samples.

Results

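Proteases cut proteins outside or inside the cell, and dedicated inhibitors bind them and stop the cut. This account covers the genes of both kinds in primary mouse Sertoli cells labelled as knockout for UXT. Members were taken by gene name: those beginning with Adam, Mmp, Timp, Serpin, Prss, Klk, Spink, Wfdc or Cst, the cathepsins named by a single letter, and Plau, Plaur, Plat and F3, leaving out Cst12 and Ctss. By this rule 57 genes were found among the 3257 genes analysed. They comprised 36 proteases and protease-like proteins, 19 members of the inhibitor families, and the receptor Plaur and cofactor F3. No Klk or Spink gene and no Plau was among them, and these were not analysed here.

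RNA from 6 libraries was compared. The UXT KO group held 3 libraries of Sertoli cells taken from knockout animals and given a virus that carried Cre recombinase. The WT group held 3 libraries of wild-type Sertoli cells given an empty plasmid. All animals were C57BL/6, and differential plating was the enrichment step in both groups. Cre was delivered to UXT KO cells alone, so loss of UXT and exposure to the Cre virus cannot be told apart. Each culture was infected in 2 rounds. The labels do not say that libraries with the same label stem from different mice or cultures, so the p-values speak of the spread between libraries alone, and this spread may be technical. Uxt itself has no row in the table analysed, which lists only genes that passed the authors' cut. Its level could not be checked here, and the loss of UXT rests on the labels.

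Values per library are on a log2 scale. They are called moderated here because their differences were mostly smaller than the authors' log2 fold changes, most of all where expression is low. The step that made these values is not stated. Over the members, the UXT KO minus WT difference of these values had a median ratio of 0.631 to the log2 fold change that the authors' deposited table lists, and the ratio lay between 0.0888 for Cst9 and 0.796 for Mmp2. Fold sizes below are therefore those of the authors' deposited table, and the values per library show the spread. Calls of higher and lower rest on limma with an adjusted p under 0.05, fitted and adjusted over all 3257 genes. Every gene had been selected by the authors on these same libraries at a fold of at least 1.5, so a call by limma is not independent evidence. Library depth was unknown.

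Sertoli cells line the seminiferous tubule and remodel the matrix and junctions around germ cells as these move and are released. They secrete plasminogen activators, cathepsin L, cystatin C and several serpins, and matrix metalloproteinases and ADAMTS enzymes cut collagens and proteoglycans in the tubule wall. Plasmin made by the plasminogen activators can in turn activate matrix metalloproteinases, and TIMPs, serpins and cystatins limit the metallo, serine and cysteine proteases.

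As deposited, transcripts of both proteases and inhibitors were mostly lower in UXT KO cells. Of the 57 members, 52 (91.2%) were called lower, beside 67.5% of all genes in the table, and 5 (8.77%) were called higher, beside 32.1%. No member was without a call, and 99.6% of all genes were called in either direction. The 5 higher genes were Mmp10, Mmp2, Adamts14, Serpinb6a and Timp4. Among the lower members the median fold was 2.36 and the range 1.54 to 18.3 in the authors' deposited table, and the higher members lay between 1.68-fold and 2.35-fold. A fall of at least 4-fold was listed for 12 members (21.1%) in the authors' deposited table, beside 13.5% of all genes, and a fall of at least 2-fold for 34 (59.6%), beside 44.4%. No member was listed as at least 4-fold higher, beside 0.768% of all genes, and 3 members were at least 2-fold higher (Mmp10, Mmp2 and Timp4), beside 9.33%. The proteases had 33 lower and 3 higher members, and the inhibitor families had 17 lower and 2 higher. The median difference was -0.59 in the proteases and -0.43 in the inhibitor families, beside -0.40 over all genes. Counts by family below are to be set beside the same shares of all genes called lower and higher. In 56 of the 57 members (all except Mmp2) the UXT KO values and the WT values did not overlap, as in 97.5% of all genes.

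How the calls split into lower and higher changed with how libraries were scaled. With quantile normalization the median difference of all genes moved up by 0.33 on the log2 scale, which left 31 members lower and 5 higher, beside 35.1% lower and 32.2% higher over the table. With subtraction of each library's median it moved up by 0.30, which left 29 lower and 6 higher, beside 31.4% lower and 34.3% higher over the table. The sixth gene called higher was Cst9. The median difference of the members was -0.57 as deposited, -0.32 after quantile normalization and -0.27 after median subtraction, beside -0.40, -0.07 and -0.10 over all genes. Among the inhibitor families, the serpins had -0.03 after quantile normalization and -0.10 after median subtraction. In the same order, the values were -0.18 and -0.11 for cystatins, -0.22 and -0.20 for TIMPs and -0.40 and -0.53 for WAP genes.

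**Figure D1:**
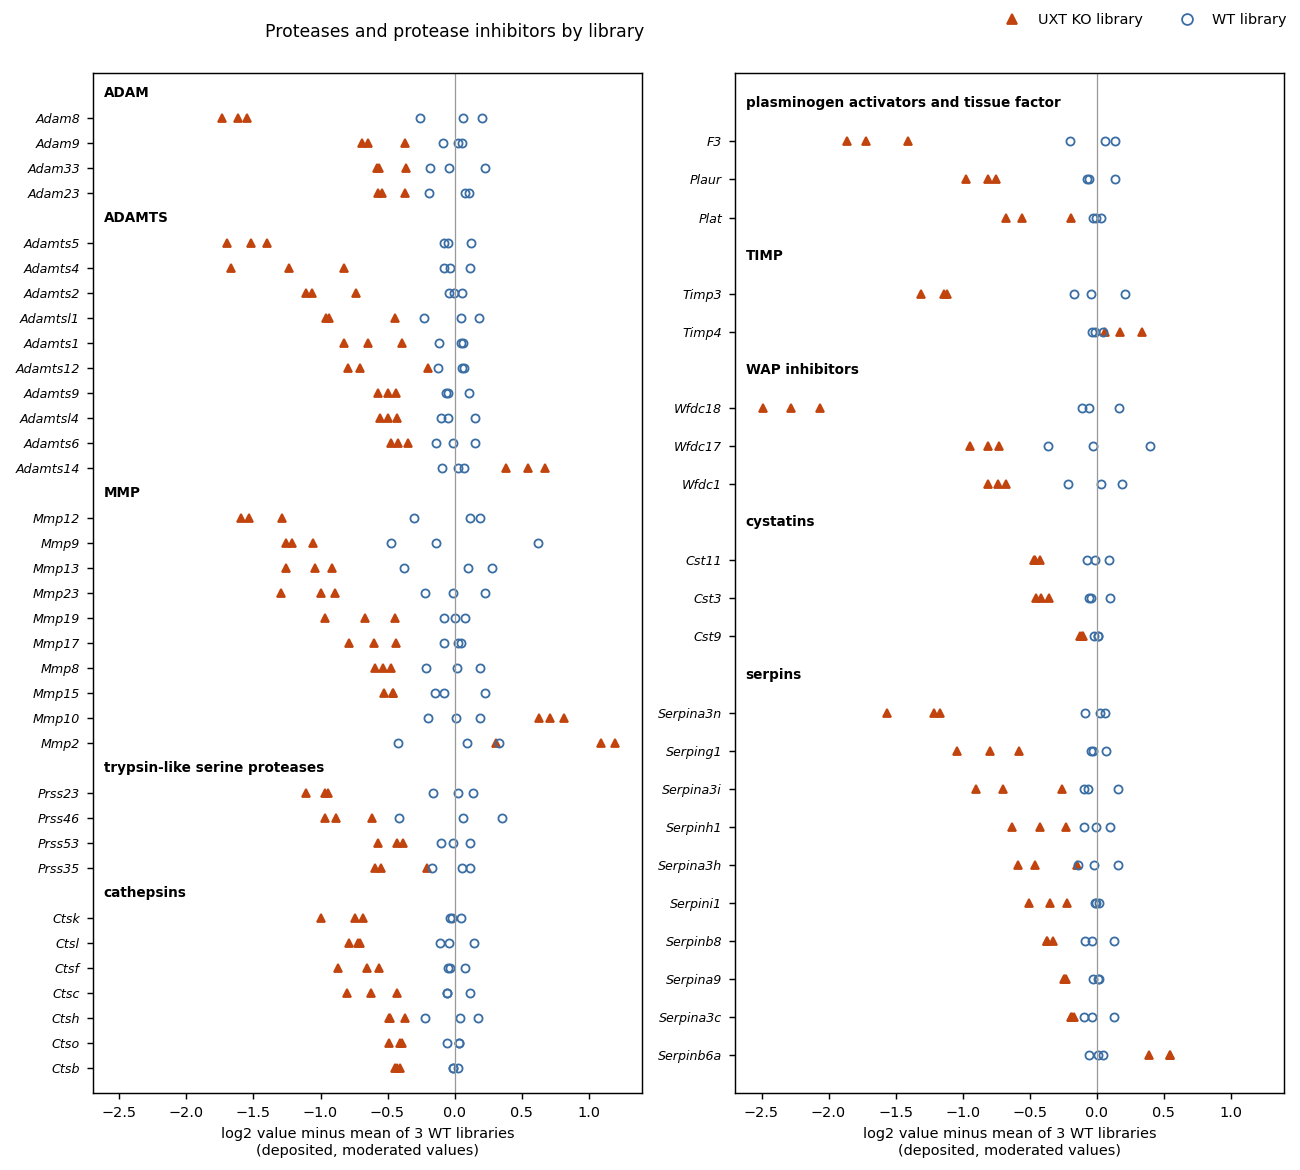
Each row is 1 of the genes described here, and each point is 1 library (filled triangles, 3 UXT KO libraries; open circles, 3 WT libraries), placed at its deposited log2 value minus the mean of the WT libraries. Most triangles lie left of the circles, those of Mmp10, Mmp2, Adamts14, Serpinb6a and Timp4 lie to the right, and in Mmp2 a triangle falls among the circles.

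**Figure D2:**
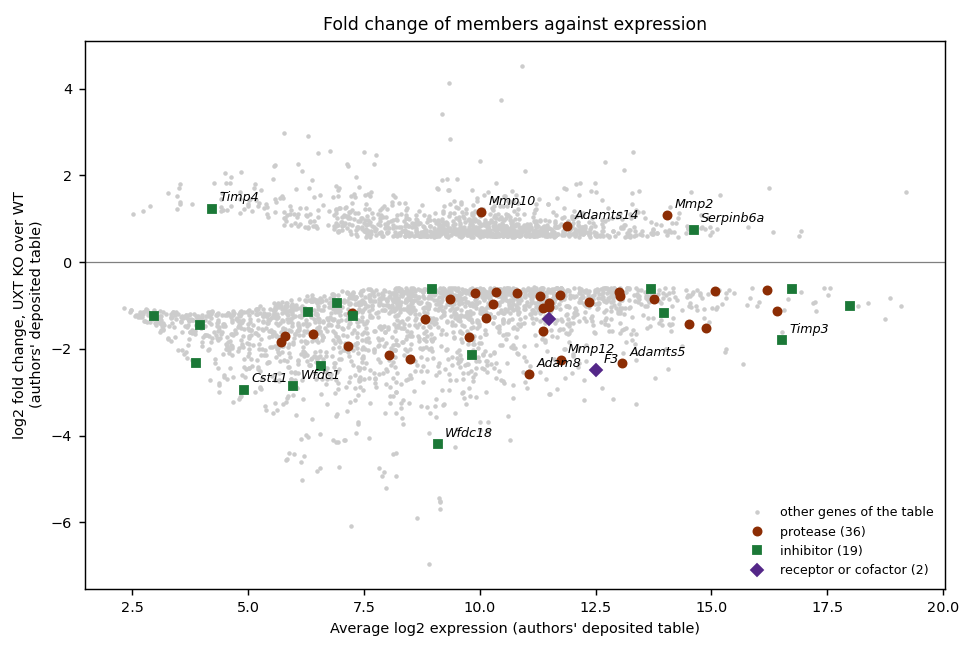
Log2 fold change (vertical axis, UXT KO over WT) against average log2 expression (horizontal axis), both from the authors' deposited table. Shown are 36 proteases and protease-like proteins (circles), 19 members of the inhibitor families (squares), 2 receptors or cofactors (diamonds) and the other genes of the table (grey). The empty band around 0 is the authors' selection at 1.5-fold, and Wfdc18 is the lowest member.

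ADAM proteins are membrane-anchored metalloproteinases, several of which shed the outer part of other membrane proteins. All 4 in the table fell in UXT KO cells. Adam8, a sheddase known from leukocytes (gene ID 11501, chromosome 7, 139978932 to 139995207 in GRCm38), had log2 values of 9.69, 9.87 and 9.80 in UXT KO libraries, against 11.48, 11.62 and 11.16 in WT libraries. The groups were far apart, and the fall was 6.02-fold in the authors' deposited table (limma difference -1.64 ± 0.12, SE, adjusted p = 9.26e-06). Adam33 stood at 5.16, 5.37 and 5.18 in UXT KO and at 5.70, 5.56 and 5.96 in WT libraries, a 3.61-fold fall in the authors' deposited table (limma adjusted p = 0.00214). Adam9, a widely expressed sheddase, had 13.30, 13.34 and 13.61 in UXT KO libraries and 14.01, 14.04 and 13.90 in WT libraries (1.80-fold lower in the authors' deposited table, limma adjusted p = 6.85e-04). Adam23, which lacks protease activity and acts in cell adhesion, was 1.69-fold lower in the authors' deposited table. The calls of Adam33 (under both scalings) and Adam23 (under median subtraction) were lost, with no change of direction.

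ADAMTS enzymes are secreted relatives of the ADAMs that cut proteoglycans and procollagens, and ADAMTS-like proteins share their matrix-binding parts without the catalytic domain. Of the 10 in the table, 9 fell and 1 rose. The aggrecanases Adamts5 and Adamts4, which cut the core proteins of aggrecan and versican, fell most. Adamts5 (gene ID 23794, chromosome 16, 85858157 to 85901125 in GRCm38) had log2 values of 11.94, 12.06 and 11.75 in UXT KO libraries, against 13.58, 13.38 and 13.41 in WT libraries. Its fall was 5.04-fold in the authors' deposited table, with a limma difference of -1.54 ± 0.10 (SE, adjusted p = 4.89e-06). For Adamts4 the values were 10.45, 10.86 and 10.02 in UXT KO libraries and 11.80, 11.61 and 11.65 in WT libraries. This 3.0-fold fall in the authors' deposited table (limma adjusted p = 2.62e-04) came with a wide spread among UXT KO libraries (SD 0.42, against 0.10 in WT, n = 3 each).

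The procollagen N-proteinases Adamts2 and Adamts14, which trim the amino end of fibrillar procollagens, moved in opposite directions. Adamts2 (chromosome 11, 50602085 to 50807573 in GRCm38) had 13.77, 14.10 and 13.72 in UXT KO libraries, against 14.79, 14.83 and 14.89 in WT libraries, a fall of 2.69-fold in the authors' deposited table (limma difference -0.97 ± 0.11, SE, adjusted p = 7.30e-05). Adamts14 (chromosome 10, 61197112 to 61273419 in GRCm38) had 11.94, 12.23 and 12.11 in UXT KO libraries, against 11.59, 11.63 and 11.46 in WT libraries, a rise of 1.78-fold in the authors' deposited table (limma difference 0.54 ± 0.09, SE, adjusted p = 6.27e-04). Neither changed direction or lost its call under the other scalings. The remaining genes of the family fell by less than Adamts2 in the authors' deposited table: Adamtsl1 by 2.50-fold, Adamts1, a versican-cutting enzyme, by 1.89-fold, Adamtsl4, a fibrillin-binding protein, by 1.81-fold, Adamts12 by 1.73-fold, Adamts9 by 1.72-fold and Adamts6 by 1.61-fold. Adamts1 and Adamts5 are neighbours on chromosome 16, where the pair spans 107 kb, and both fell. Calls of Adamts12 and Adamtsl4 were lost under both scalings and that of Adamts6 under median subtraction.

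Matrix metalloproteinases (MMPs) cut collagens, gelatin, elastin and other matrix proteins. Of the 10 in the table, 8 fell and 2 rose. The metalloelastase Mmp12, best known from macrophages (gene ID 17381), had log2 values of 10.50, 10.56 and 10.81 in UXT KO libraries, against 12.28, 12.21 and 11.79 in WT libraries. That was a fall of 4.77-fold in the authors' deposited table (limma difference -1.47 ± 0.14, SE, adjusted p = 2.74e-05). The collagenase Mmp13 (gene ID 17386) stood at 7.20, 7.32 and 6.98 in UXT KO and at 8.51, 8.33 and 7.85 in WT libraries, 4.44-fold lower in the authors' deposited table (limma adjusted p = 4.17e-04). Mmp8, the collagenase of neutrophils, had 5.92, 6.04 and 5.98 in UXT KO and 6.71, 6.53 and 6.30 in WT libraries, 3.16-fold lower in the authors' deposited table. The call of Mmp8 (limma adjusted p = 0.00152) was lost under both scalings.

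The stromelysin Mmp10 (gene ID 17384), which cuts proteoglycans and activates other MMPs, went the other way. Its log2 values were 10.27, 10.37 and 10.19 in UXT KO libraries, against 9.57, 9.36 and 9.75 in WT libraries, so that each UXT KO value lay above each WT value. The rise was 2.22-fold in the authors' deposited table (limma difference 0.72 ± 0.11, SE, adjusted p = 3.47e-04). Mmp10 shares sequence with its relative Mmp3: 8.37% of the 50-base stretches in its transcripts also occur in transcripts of other genes, mostly Mmp3, so its value is uncertain to that extent.

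Mmp13, Mmp12, Mmp10 and Mmp8 lie in this order in 1 gene cluster on chromosome 9, across 296 kb (7272514 to 7568486 in GRCm38). That interval holds 7 protein-coding genes in RefSeq, all of the MMP family, of which these 4 are in the table. Mmp1b, Mmp3 and Mmp1a, which lie between Mmp12 and Mmp10, were not analysed here. The stretches just before the start of each of the 4 genes are shown because neighbours with opposite changes can be compared base by base. They are from RefSeq (GRCm38.p6, plus strand, 120 bases each, ending 1 base before the annotated start) at chr9:7272394-7272513, chr9:7347254-7347373, chr9:7502222-7502341 and chr9:7558309-7558428. Of the starts RefSeq gives for Mmp12, the downstream one is shown, the only one whose window held an AP-1 motif. Capitals mark an AP-1 motif, TGANTCA on either strand, or the letters of a TATA box, TATAAA, at any position on the gene's strand.
Mmp13: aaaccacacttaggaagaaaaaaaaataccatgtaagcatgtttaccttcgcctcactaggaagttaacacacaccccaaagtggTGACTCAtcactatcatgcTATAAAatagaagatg
Mmp12: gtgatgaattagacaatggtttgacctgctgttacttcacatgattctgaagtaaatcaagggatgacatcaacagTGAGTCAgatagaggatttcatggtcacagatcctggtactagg
Mmp10: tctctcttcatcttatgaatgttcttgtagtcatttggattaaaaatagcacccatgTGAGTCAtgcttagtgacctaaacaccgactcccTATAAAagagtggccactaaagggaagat
Mmp8: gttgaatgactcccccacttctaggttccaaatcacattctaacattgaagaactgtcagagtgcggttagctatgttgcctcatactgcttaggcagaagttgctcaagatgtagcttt
With the first transcribed base as position 1 and the base before it as -1, an AP-1 motif begins at -35 in Mmp13, at -44 in Mmp12 and at -63 in Mmp10, and none was found in the window of Mmp8. The motif was thus present in front of Mmp10, which rose, and of Mmp13 and the shown start of Mmp12, which fell. The letters TATAAA begin at -16 in Mmp13 and at -29 in Mmp10, and a match that begins at 5 in Mmp12 lies past the stretch shown.

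The gelatinases Mmp9 and Mmp2, which digest denatured collagen and basement membrane collagen, also moved apart. Mmp9 (chromosome 2, 164940326 to 164955850 in GRCm38) had 7.41, 7.57 and 7.36 in UXT KO libraries, against 8.48, 9.24 and 8.14 in WT libraries. It was 4.69-fold lower in the authors' deposited table, with a spread among WT libraries (SD 0.56, n = 3) wider than that among UXT KO libraries (SD 0.11, n = 3), where WT replicate 2 was the highest of all (limma difference -1.17 ± 0.23, SE, adjusted p = 0.00136). Mmp2 (chromosome 8, 92827290 to 92853421 in GRCm38) had 14.49, 14.60 and 13.71 in UXT KO libraries, against 12.98, 13.49 and 13.73 in WT libraries. Here the groups overlapped, since UXT KO replicate 3 lay just below WT replicate 3. The rise was 2.13-fold in the authors' deposited table (limma difference 0.87 ± 0.25, SE, adjusted p = 0.00768).

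The other MMPs fell. Mmp23, a membrane-bound form, was 3.34-fold lower, Mmp15, a transmembrane type, 2.26-fold, Mmp19 2.03-fold and Mmp17, which is held in the membrane by a lipid anchor, 1.95-fold in the authors' deposited table. Of these, Mmp15 lost its call under both scalings.

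**Figure D3:**
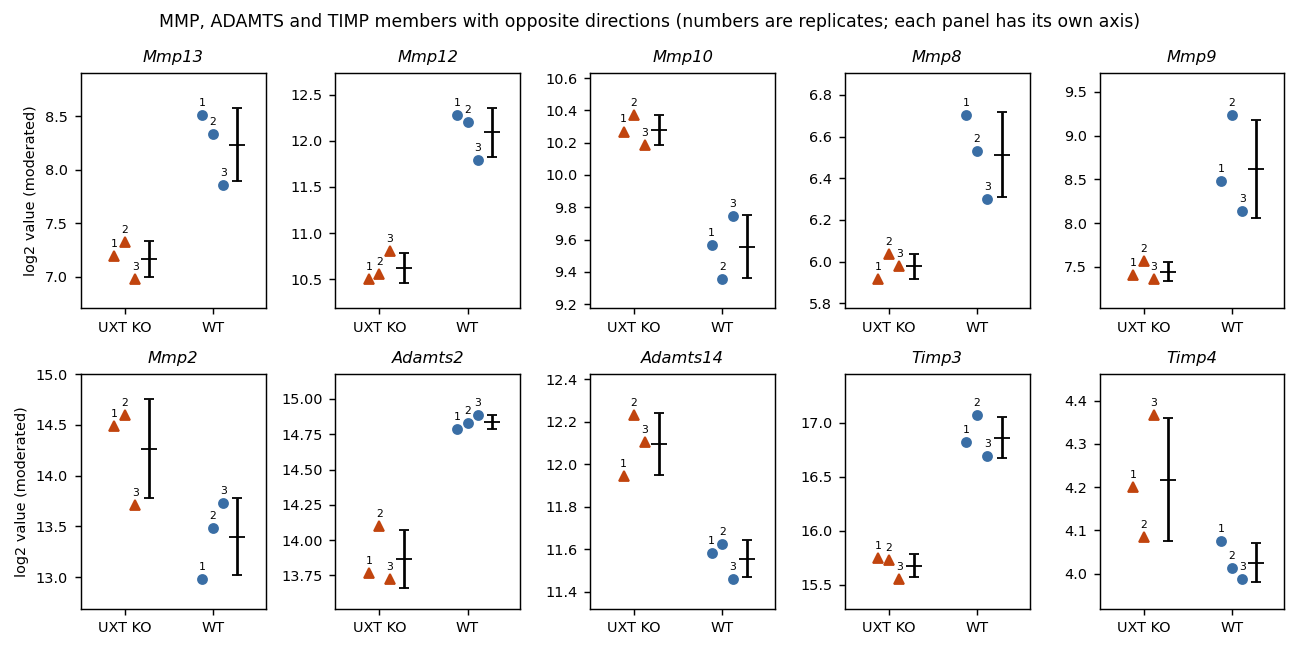
Deposited log2 values (vertical axes, moderated, a separate axis for each panel) of 10 genes in 3 UXT KO libraries (triangles) and 3 WT libraries (circles), with replicate numbers and the mean ± SD (bars). Mmp10, Mmp2, Adamts14 and Timp4 were higher in UXT KO libraries, while Mmp13, Mmp12, Mmp8, Mmp9, Adamts2 and Timp3 were lower, and the overlap of the groups in Mmp2 can be seen.

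Plat and Plaur belong to the plasminogen system, and F3 starts the extrinsic clotting pathway. Plat encodes the tissue-type plasminogen activator and Plaur the receptor that holds urokinase at the cell surface. All 3 fell in UXT KO cells. F3, which encodes tissue factor (gene ID 14066, chromosome 3, 121723537 to 121735052 in GRCm38), had log2 values of 11.17, 11.02 and 11.48 in UXT KO libraries, against 13.03, 12.95 and 12.69 in WT libraries (limma difference -1.66 ± 0.13, SE, adjusted p = 1.20e-05). Plaur (gene ID 18793, chromosome 7, 24460937 to 24475970 in GRCm38) had 10.97, 11.03 and 10.81 in UXT KO libraries, against 11.92, 11.72 and 11.71 in WT libraries, a 2.48-fold fall in the authors' deposited table (limma adjusted p = 5.94e-05). For Plat the values were 10.31, 10.79 and 10.43 in UXT KO libraries and 11.02, 10.98 and 10.96 in WT libraries. This was 1.63-fold lower in the authors' deposited table (limma adjusted p = 0.00399), and the call was lost under median subtraction.

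The windows in front of F3 and Plaur also hold AP-1 motifs, and 160 bases of each are shown for comparison with the MMP cluster (RefSeq, GRCm38.p6, plus strand, chr3:121723377-121723536 and chr7:24462323-24462482). Capitals mark the AP-1 motif as above.
F3: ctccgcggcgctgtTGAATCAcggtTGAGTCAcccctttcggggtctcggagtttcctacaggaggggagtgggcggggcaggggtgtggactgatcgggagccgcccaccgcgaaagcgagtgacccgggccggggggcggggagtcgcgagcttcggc
Plaur: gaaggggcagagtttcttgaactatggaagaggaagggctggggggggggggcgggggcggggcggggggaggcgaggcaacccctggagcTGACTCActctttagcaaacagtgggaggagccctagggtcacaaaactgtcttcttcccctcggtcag
In F3 the motif begins at -146 and at -135, and in Plaur at -69. Of the starts RefSeq gives for Plaur, one with the motif is shown. RefSeq promoter windows, from 250 bases before to 50 after a start, were matched by gene ID for 38 of the 57 members. An AP-1 motif was found in 7 of these 38 genes (18.4%), beside 8.91% of the 2468 genes of the table with a window and 8.97% of 27025 genes in RefSeq. The 7 were Mmp10, Mmp12, Mmp13, F3, Plaur, Prss23 and Serpinb8, of which Mmp10 rose and the others fell as deposited (Serpinb8 turned under quantile normalization). The letters TATAAA, at any position of the window, were also found in 7 of the 38 genes (18.4%), beside 8.14% in the table and 9.77% in RefSeq. They began at -32 in Adamts1, at -31 in Wfdc18 and at -29 in Mmp10. In Serpina3c they began at -132, in Mmp13 at -16, in Wfdc17 at -3 and in Mmp12 at 5. These shares are therefore not shares of working TATA boxes. UXT is known as a cofactor of the androgen receptor. A full palindromic androgen response element (either strand) was found in none of the 38 genes, in none of the 2468 and in 3 of 27025. At 0.0111% of RefSeq genes it is too rare in these windows for its absence from 38 genes to be informative. A part of the receptor was not tested. The cyclic AMP response element TGACGTCA (either strand) was in none of the 38, beside 2.63% in the table and 2.03% in RefSeq. Matches of different motifs did not overlap in the stretches printed, and a match is a description of letters, not of binding.

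The 4 serine proteases named Prss all fell. Prss23, a secreted protease (gene ID 76453, chromosome 7, 89507783 to 89527187 in GRCm38), had log2 values of 14.24, 14.27 and 14.10 in UXT KO libraries, against 15.23, 15.04 and 15.34 in WT libraries. Its fall was 2.86-fold in the authors' deposited table (limma difference -1.0 ± 0.10, SE, adjusted p = 3.90e-05). Prss46 had 6.36, 6.62 and 6.27 in UXT KO libraries and 7.59, 7.30 and 6.82 in WT libraries, 3.82-fold lower in the authors' deposited table (limma adjusted p = 0.00228). Prss53 had 5.32, 5.46 and 5.51 in UXT KO and 5.79, 5.88 and 6.00 in WT libraries, 3.25-fold lower in the authors' deposited table. Its value is uncertain, since 74.4% of its 50-base stretches are shared with Gm21974, an annotated gene that overlaps it on the same strand. Prss35, a secreted relative known from the ovary, was 1.58-fold lower in the authors' deposited table. Prss53 and Prss35 lost their calls under both scalings, and Prss46 under quantile normalization.

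Cathepsins are mainly lysosomal proteases, and all 7 in the table are of the cysteine type. Each fell, by 1.56-fold to 2.46-fold in the authors' deposited table. Ctsk, a collagen-degrading cathepsin of bone (chromosome 3, 95499210 to 95509387 in GRCm38), had 9.40, 9.72 and 9.66 in UXT KO libraries, against 10.45, 10.39 and 10.37 in WT libraries, a fall of 2.46-fold in the authors' deposited table (limma adjusted p = 1.06e-04). Ctsl, which Sertoli cells secrete as its proenzyme (gene ID 13039, chromosome 13, 64361890 to 64370772 in GRCm38), had 15.91, 15.97 and 15.99 in UXT KO libraries, against 16.59, 16.84 and 16.65 in WT libraries. It fell 2.18-fold in the authors' deposited table (limma difference -0.74 ± 0.10, SE, adjusted p = 2.10e-04), and 6.46% of its 50-base stretches are shared, mostly with the overlapping gene Gm49230.

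Ctsf stood at 10.96, 11.05 and 10.75 in UXT KO and at 11.57, 11.70 and 11.59 in WT libraries, 2.10-fold lower in the authors' deposited table (limma adjusted p = 1.76e-04). Ctsc, which activates granule serine proteases of leukocytes, was 1.92-fold lower, Ctso 1.64-fold, the aminopeptidase Ctsh 1.62-fold and Ctsb 1.56-fold in the authors' deposited table. Ctsb had the smallest spread of the cathepsins (15.95 ± 0.02 in UXT KO and 16.37 ± 0.02 in WT libraries, SD, n = 3 each). Ctsb and Ctsh lost their calls under both scalings and Ctso under median subtraction, in each case without a change of direction.

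Among the inhibitors, the TIMPs bind MMPs directly, and the 2 in the table moved apart. Timp3, which binds to the matrix and also inhibits ADAM and ADAMTS enzymes (gene ID 21859, chromosome 10, 86300412 to 86349505 in GRCm38), had log2 values of 15.75, 15.73 and 15.55 in UXT KO libraries, against 16.82, 17.07 and 16.70 in WT libraries. It fell 3.46-fold in the authors' deposited table (limma difference -1.19 ± 0.12, SE, adjusted p = 4.34e-05). Timp4 had 4.20, 4.09 and 4.37 in UXT KO libraries, against 4.08, 4.01 and 3.99 in WT libraries, a rise of 2.35-fold in the authors' deposited table (limma difference 0.19 ± 0.07, SE, adjusted p = 0.025). UXT KO replicate 2 and WT replicate 1 were less than 0.01 apart in Timp4. The call of Timp4 was lost without UXT KO replicate 1 or 3, or without WT replicate 2 or 3. Exons of Timp3 and Timp4 overlap those of Syn3 and Syn2 on the other strand, as those of Ctsb do with Fdft1, Prss53 with Zfp646 and Mmp12 with Mmp1b. Whether the counting used strand was not stated in the labels.

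The WAP-domain genes, small secreted proteins of which several inhibit serine proteases, held the largest fold of all 57 members. Wfdc18 (gene ID 14038, chromosome 11, 83709004 to 83711360 in GRCm38) had log2 values of 6.83, 7.04 and 7.26 in UXT KO libraries, against 9.48, 9.26 and 9.21 in WT libraries. Its fall was 18.3-fold in the authors' deposited table (limma difference -2.28 ± 0.13, SE, adjusted p = 3.39e-06). Its neighbour Wfdc17, known from activated macrophages (chromosome 11, 83704056 to 83706269 in GRCm38), had 5.88, 5.80 and 5.67 in UXT KO and 7.01, 6.24 and 6.58 in WT libraries, a 5.30-fold fall in the authors' deposited table (limma adjusted p = 0.00151, lost after quantile normalization). Both genes lie within 7.31 kb. Wfdc1, on chromosome 8, stood at 5.27, 5.33 and 5.19 in UXT KO and at 5.79, 6.19 and 6.04 in WT libraries, 7.28-fold lower in the authors' deposited table (limma adjusted p = 2.35e-04).

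The cystatin family includes inhibitors of cysteine cathepsins, and the 3 members, grouped by name, lie within 107 kb on chromosome 2. Cst3, which encodes the secreted inhibitor cystatin C (148871722 to 148875512 in GRCm38), had 13.45, 13.51 and 13.41 in UXT KO libraries, against 13.81, 13.82 and 13.96 in WT libraries, a fall of 1.54-fold in the authors' deposited table (limma adjusted p = 0.0011, lost under both scalings). Cst11, known from the epididymis, had 4.48, 4.52 and 4.48 in UXT KO and 5.03, 4.87 and 4.93 in WT libraries, 7.67-fold lower in the authors' deposited table (limma adjusted p = 1.92e-04, lost under median subtraction). Its expression was low, and its moderated difference was -0.45 on the log2 scale. Cst9, or testatin, known from the fetal testis, had 2.85, 2.86 and 2.87 in UXT KO and 2.99, 2.98 and 2.95 in WT libraries. Cst9 was 2.37-fold lower in the authors' deposited table (limma difference -0.11 ± 0.03, SE, adjusted p = 0.00588), but its difference turned to 0.19 after median subtraction.

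Serpins are inhibitors that trap a serine protease by a change of their own shape. Of the 11 in the table, 10 fell and Serpinb6a rose, although Serpina3c, Serpina3h, Serpinb8 and Serpina9 changed sign under 1 or both of the other scalings. After quantile normalization 2 serpins were called lower and 1 higher, beside 35.1% and 32.2% of all genes. After median subtraction 3 were called lower and 1 higher, beside 31.4% and 34.3% of all genes. Serpina3n, which cultured mouse Sertoli cells secrete and which inhibits granzyme B (gene ID 20716, chromosome 12, 104406646 to 104414334 in GRCm38), had log2 values of 8.60, 9.0 and 8.95 in UXT KO libraries, against 10.19, 10.08 and 10.23 in WT libraries. The fall was 4.44-fold in the authors' deposited table (limma difference -1.32 ± 0.12, SE, adjusted p = 2.06e-05). Serpina9, whose exons overlap those of Gm28577 on the same strand, had 3.65, 3.66 and 3.66 in UXT KO and 3.90, 3.87 and 3.91 in WT libraries, 4.98-fold lower in the authors' deposited table (limma adjusted p = 5.26e-04). Serpina3c had 3.77, 3.79 and 3.78 in UXT KO and 3.87, 3.93 and 4.10 in WT libraries, 2.72-fold lower in the authors' deposited table (limma adjusted p = 0.0149).

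Serpina9, Serpina3c, Serpina3h, Serpina3i and Serpina3n lie within 418 kb on chromosome 12 and were all lower in the authors' deposited table, Serpina3i by 2.36-fold and Serpina3h by 1.92-fold, although the signs of Serpina9, Serpina3c and Serpina3h turned under another scaling. Serpina3 genes are close copies of each other. The share of 50-base stretches that recur in other genes was 21.9% for Serpina3h, 15.9% for Serpina3i, 6.90% for Serpina3n and 4.25% for Serpina3c, so the split of reads between them is uncertain. Serpina3i and Serpina3h lost their calls as lower genes under both scalings. Serpina3h also lost its call without UXT KO replicate 3 or without WT replicate 3.

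Serpinb6a, an intracellular serpin (gene ID 20719, chromosome 13, 33917918 to 34002794 in GRCm38), had 14.88, 14.72 and 14.88 in UXT KO libraries, against 14.34, 14.27 and 14.38 in WT libraries. The rise was 1.68-fold in the authors' deposited table (limma difference 0.50 ± 0.08, SE, adjusted p = 5.95e-04). Its exons overlap those of Nqo2 and Ripk1 on the other strand. Serping1, the inhibitor of complement C1 proteases, was 2.27-fold lower, Serpinb8 (which turned under quantile normalization) 2.23-fold, the neuronal serpin Serpini1 1.55-fold and Serpinh1, a chaperone of procollagen that is no protease inhibitor, 1.54-fold in the authors' deposited table. Of these, Serpinb8, Serpinh1 and Serpini1 lost their calls under both scalings.

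Levels between genes were compared roughly per length, as the average log2 expression in the authors' deposited table minus the log2 of exon length in kb. That length merges all exons annotated for a gene. Where it exceeds the length of the transcript expressed, the level comes out too low. At the high end were Serpinh1 with 15.45, Ctsl with 13.73, Ctsb with 13.60 and Timp3 with 13.49. At the low end of the same per-length scale were Serpina3c with 2.82, Serpina9 with 2.0 and Timp4 with 1.66.

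Over the members as a whole, UXT KO replicate 2 departed least from WT. It had the highest of the 3 UXT KO values in 41 of 57 members (71.9%), beside 35.4% of all genes, and in 38 of the 52 lower members (73.1%), beside 46.5% of all genes called lower. The median deviation of the members from the WT mean was -0.65, -0.44 and -0.63 in UXT KO replicates 1, 2 and 3, against 0.03, -0.02 and -0.02 in WT replicates 1, 2 and 3. Over all genes, replicate 2 was also nearest to WT, with -0.40, -0.34 and -0.38 in UXT KO replicates 1, 2 and 3. Without UXT KO replicate 2 the counts stayed at 52 lower and 5 higher, with a median difference of -0.62. In the same libraries the log2 of the summed level of 6 fibroblast markers was 19.68, 20.14 and 19.41 in UXT KO replicates 1, 2 and 3, against 20.57, 20.47 and 20.62 in WT replicates 1, 2 and 3. By summed level, replicate 2 was also the highest UXT KO library for 9 myoid markers (18.59, 18.74 and 18.54 in UXT KO replicates 1, 2 and 3). The same held for the sum of 16 endothelial markers (13.25, 13.46 and 13.25), in which the most abundant genes weigh most. Single endothelial markers differed. Replicate 2 was the highest in Cdh5 (11.47, 11.73 and 11.36) and Eng (12.23, 12.44 and 12.30). It was not in Pecam1 (8.25, 8.17 and 7.94) or Flt1 (6.76, 6.97 and 7.15). The 19 macrophage markers ran otherwise, at 13.41, 13.54 and 13.65 in UXT KO replicates 1, 2 and 3. In the same order, the 14 Sertoli cell markers stood at 15.74, 16.18 and 16.18. The 3 Leydig markers stood at 16.04, 15.75 and 15.71, and the 3 germ cell markers at 12.14, 12.39 and 12.29. The part of these markers in the members' values was not tested.

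**Figure D4:**
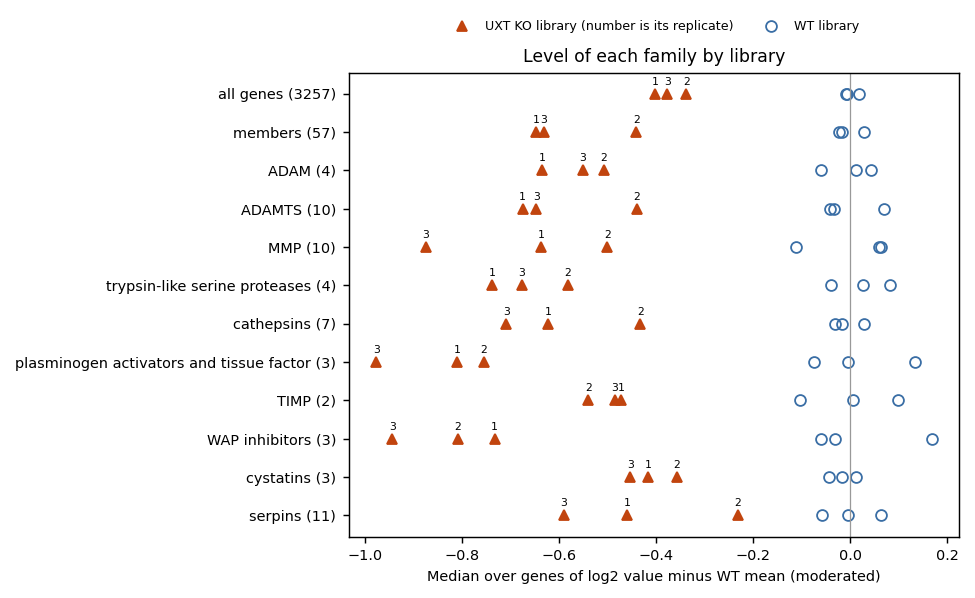
Median over the genes of each family (number of genes in brackets) of the deposited log2 value minus the WT mean (horizontal axis) in 3 UXT KO libraries (triangles with their replicate number) and 3 WT libraries (circles). Among the UXT KO libraries, replicate 2 lies nearest to the WT libraries over all members and in each family except the TIMP and WAP genes.

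Markers of other cell types in testis cultures moved in the same libraries, and in bulk RNA fewer cells of a type cannot be told apart from less RNA per cell. Over all genes of the table, 67.5% were called lower and 32.1% higher. All 19 macrophage markers in the table, of 20 listed, fell, by 3.03-fold to 14.7-fold in the authors' deposited table. The log2 of their summed level was 13.41 to 13.65 in UXT KO libraries and 14.89 to 15.25 in WT libraries. Known leukocyte products among the members are Adam8, Mmp8, Mmp9, Mmp12 and Wfdc17, which fell. All 16 endothelial markers of 18 listed fell, by 1.73-fold to 51.8-fold in the authors' deposited table, although Tek turned under quantile normalization. Their summed level, in which the most abundant genes weigh most, was 13.25 to 13.46 in UXT KO and 14.04 to 14.14 in WT libraries. All 9 myoid markers of 11 fell, by 1.51-fold to 4.26-fold in the authors' deposited table, although Tagln turned under quantile normalization. Their summed level was 18.54 to 18.74 in UXT KO and 19.03 to 19.35 in WT libraries. All 6 fibroblast markers of 14 fell, by 1.77-fold to 2.80-fold in the authors' deposited table. The 3 Leydig markers in the table, of 10, rose (15.71 to 16.04 in UXT KO and 15.15 to 15.35 in WT libraries). Of 15 germ cell markers, 3 were in the table, with Uchl1 higher and Sycp3 and Kit lower as deposited, and Sycp3 turned under both scalings. Of 20 Sertoli cell markers 14 were in the table and all were lower (15.74 to 16.18 in UXT KO and 17.02 to 17.46 in WT libraries). The lowest value of these markers in any library was 3.66 (Sycp3), near those of the low members Timp4 and Serpina3c. Whether the lowest markers were expressed was not tested. The part of these cell types in the members' values was not tested.

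Genes that act with the members but are named otherwise changed in both directions. For the lists below, the shares over all genes were 67.5% called lower and 32.1% called higher as deposited. After quantile normalization they were 35.1% and 32.2%, and after median subtraction 31.4% and 34.3%. Of 28 genes of the plasmin and clotting systems, 7 were in the table, with 5 lower and 2 higher. F13a1, the clotting transglutaminase also made by macrophages, had 6.10, 6.06 and 6.08 in UXT KO libraries, against 8.22, 7.60 and 7.94 in WT libraries, a fall of 26.7-fold in the authors' deposited table (limma adjusted p = 1.17e-05). The broad protease inhibitor A2m fell 2.79-fold, Thbs1 2.17-fold and S100a10, which binds plasminogen at the cell surface, 1.75-fold in the authors' deposited table. Procr, the receptor of protein C, rose 1.53-fold in the authors' deposited table. Of 56 other membrane-bound and secreted peptidases, 14 were in the table and all were called lower as deposited (8 after quantile normalization, where Mmel1 turned, and 7 after median subtraction, where Tmprss6 turned). The neprilysin gene Mme fell 6.15-fold, with 9.03, 9.70 and 9.60 in UXT KO libraries, against 11.58, 11.36 and 11.28 in WT libraries (limma adjusted p = 1.71e-05), and the secreted serine proteases Htra3 and Htra1 fell, Htra3 by 3.20-fold and Htra1 by 3.0-fold in the authors' deposited table. Of 31 other inhibitors and regulators, 8 were lower and 1 higher of 9 in the table, although Itih5 and Fetub turned under quantile normalization. In this list 5 were called lower after quantile normalization and 3 after median subtraction, with 1 called higher under each. Spint2, an inhibitor of membrane serine proteases, fell 4.15-fold, Bsg, which induces MMPs, 2.0-fold and Reck, a membrane inhibitor of MMPs whose call was lost under median subtraction, 1.66-fold, while Pi15 rose 1.55-fold in the authors' deposited table.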

How the data were processed

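Libraries of mRNA were made with a stranded kit, per the labels' protocols. The submitters' processing notes name FastQC, STAR, DESeq2 and mm10 and give no version. Neither counter, annotation nor strand setting is stated there or in the labels. What the authors deposited was 1 table of 3261 rows, from which 4 rows of 2 repeated symbols were left out. Its log2 values per library were normalized and moderated by the authors in a way the sources used here do not state. Per the file headers it also holds p-values, and the authors' signed fold score (UXT KO over WT, or minus the inverse). Counts were not used and depth is unknown.

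All 3257 genes were fitted with limma 3.58.1 (R 4.3.3), with a mean-variance trend, no covariate and Benjamini-Hochberg adjustment, and checked on simulated data. The design had allowed for linear values, which were not met. Values in every library are given for the 3 largest folds of each family by name, for families of up to 3 genes and for members opposed to most of their family. Some further members, the pairs and the neighbours were chosen after their values were seen. The members and lists were chosen with earlier results of these data known. Positions (all 57 members) and promoters (38 members) are from RefSeq (GRCm38.p6, the build called mm10), matched by gene ID. Exon lengths, overlaps and 50-base stretches come from GENCODE transcripts (same build). Alternatives were 2 scalings, a filter on low values, no trend, a replicate block, an adjusted p of 0.01 and leaving out each library. The own result of 1 counted member is not reported here.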

Additional observations from a re-analysis of the deposited data

How the results depend on the processing

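Of the alternatives tried, the 2 scalings moved the counts most: 31 members were lower after quantile normalization and 29 after median subtraction, in place of 52, and the median difference was -0.32 and -0.27 in place of -0.57. Both scalings assume equal distributions or medians over genes the authors had selected, and which scaling is right was not tested. The sign turned after quantile normalization in Serpina3c (8.9e-04), Serpina3h (0.051) and Serpinb8 (0.081), and after median subtraction in Cst9 (0.19), Serpina3c (0.11) and Serpina9 (0.059). With the 2443 genes of higher average expression alone, 45 members were left, 41 lower and 4 higher. Without the trend there were 50 lower and 4 higher, and at an adjusted p of 0.01 there were 50 lower and 4 higher. Leaving out each library gave 51 to 52 lower and 4 to 5 higher, with a median difference from -0.62 to -0.51. The replicate numbers did not pair the libraries: deviations of same-numbered libraries correlated at 0.18, -0.07 and -0.0039, and of the UXT KO libraries only replicate 1 correlated best with its own number. With the replicate block, 52 members were lower and 5 higher. Moderated values at low expression (Cst9, Cst11, Serpina3c, Serpina9, Timp4) limit what can be read from them. The ratio of the moderated difference to the authors' log2 fold change was 0.153 in Cst11. It was also low in Wfdc1 (0.259), Prss53 (0.271) and Adam33 (0.272), so the moderated differences of these genes were small beside the folds that the authors list.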

Other observations

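Proteases that act inside the cell were also in the table. Of 27 listed, 6 were present, with 5 lower and 1 higher in UXT KO cells as deposited. Beside this, 67.5% of all genes were called lower and 32.1% higher. The inflammatory caspase genes Casp1 and Casp4 were lower, Casp1 by 1.98-fold and Casp4 by 1.59-fold, Casp12 by 1.61-fold, the calpain gene Capn1 by 1.57-fold and the immunoproteasome subunit gene Psmb8 by 1.82-fold in the authors' deposited table. Casp1 turned under both scalings, Casp4 lost its call under both, and Casp12 and Capn1 lost theirs under median subtraction. Clpp, the protease of the mitochondrial matrix, had log2 values of 10.90, 10.83 and 10.83 in UXT KO libraries, against 10.41, 10.40 and 10.45 in WT libraries, and rose 1.62-fold in the authors' deposited table (limma adjusted p = 4.85e-04).

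Among 10 proprotein convertases, which cut secreted precursors, 2 were in the table and moved apart. Pcsk4, known from germ cells, had 6.32, 6.33 and 6.45 in UXT KO libraries, against 5.94, 5.94 and 6.06 in WT libraries, 2.36-fold higher in the authors' deposited table (limma adjusted p = 0.00183). Pcsk6 had 7.44, 7.90 and 7.94 in UXT KO libraries, against 8.40, 8.41 and 8.24 in WT libraries, 2.10-fold lower in the authors' deposited table (limma adjusted p = 0.00322), and lost its call under both scalings.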
